A study of Mus musculus with 2 samples.

Results

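The genes described here are 10 receptors and signal transducers of the Activin and Nodal branch and of the bone morphogenetic protein (BMP) branch of the transforming growth factor β family, namely Smad1, Smad2, Smad3, Smad4, Smad5, Acvr1b, Acvr2a, Acvr2b, Bmpr1a and Bmpr2. They were taken by gene symbol under a rule that uses no measured value, though the set was drawn up with earlier results of these data known, and all 10 were present among the 32285 genes of the deposited count matrices. The data were single-cell RNA sequencing (10x Chromium 3′ chemistry with unique molecular identifiers, UMIs) of mouse embryos at embryonic day 7 (E7). The control library came from pooled Sox2-Cre embryos with 1 floxed and 1 intact Yap1 allele (Yap1 flox/+), and the Yap1 cKO library from pooled Sox2-Cre embryos with both alleles floxed (Yap1 flox/flox). Both libraries thus carried the Cre, and the sample label calls the control wild type. Sox2-Cre recombines in the epiblast and its descendants, and is known not to act in extraembryonic ectoderm or visceral endoderm. YAP1 itself is a transcriptional coactivator of the Hippo pathway that binds DNA through TEAD factors.

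In this family a ligand brings together type II receptors (here Acvr2a, Acvr2b and Bmpr2) and type I receptors (here Acvr1b for Activin and Nodal, and Bmpr1a for BMPs). The type I receptor phosphorylates receptor-regulated Smads: Smad2 and Smad3 for Activin and Nodal, Smad1 and Smad5 for BMPs. Both kinds then join the common partner Smad4 in the nucleus. In the E7 embryo, Nodal maintains the epiblast and induces streak and endoderm, whereas BMP4 from the extraembryonic ectoderm acts on the posterior epiblast and the mesoderm that leaves the streak.

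The control library held 1829 barcodes and 70573418 UMIs, and the Yap1 cKO library 1897 barcodes and 87937858 UMIs. Barcodes with at least 5000 detected genes, less 1 and 4 doublet calls, left 790 control and 860 Yap1 cKO cells, with medians of 75696 and 80559 UMIs. Marker genes placed 763 control and 835 Yap1 cKO cells in 9 populations, and 27 and 25 cells in none. The 2 libraries shared 2 barcode sequences, none of them among these cells. Both libraries are labelled female, yet 51.6% of control cells and 15.6% of Yap1 cKO cells carried UMIs of Y-linked genes and none of Xist. The pools thus held embryos of both sexes in unequal parts. Some ratios of the 10 genes are given for both kinds of cell, but the other pathway genes were not parted in this way. Yap1, the deleted gene, was at 29.3 CPM (UMIs of the gene per 1000000 UMIs of the population) in control against 1.19 CPM in Yap1 cKO epiblast-like cells, whereas extraembryonic ectoderm-like cells held 24.9 and 18.4 CPM and visceral endoderm-like cells 31.8 and 27.9 CPM. Anterior visceral endoderm-like cells (18 and 24 cells) were at 39.1 CPM (27.5 to 53.9) in control against 12.7 CPM (7.97 to 19.3) in Yap1 cKO, a ratio of 0.325 (0.183 to 0.566) from 37 and 22 UMIs. This population thus did not keep Yap1 at the control level, and the cause was not tested. The authors write that extraembryonic tissue of Yap1 flox/flox embryos is likely heterozygous for Yap1, through deletion of the paternal allele. They state this for control and cKO embryos, also those without Cre, and not for the cKO alone. In anterior visceral endoderm-like cells the summed visceral endoderm markers were at 5055 and 7089 CPM, against 16916 and 16712 CPM in visceral endoderm-like cells. Every defining list of markers was raised in its population in both libraries, by at least 4 of its genes. The gates were set on these same lists, so this is largely by construction and is no independent check of the populations. Primitive streak-like cells had all 4 markers raised but none among their 10 leading genes, which included Fst, Nanog and Fgf8. The streak gate was set at 20 CPM of T and Mixl1 together. A cell at the median depth of these cells (71344 UMIs in control, 77083 in Yap1 cKO) could thus pass it on few UMIs. Several gates had many cells close to their threshold. Among all cells kept, the summed markers of 50 control and 53 Yap1 cKO cells lay within 25% of the epiblast threshold and those of 35 and 45 cells within 25% of the streak threshold. For the blood gate these were 37 and 72 cells, beside populations of 44 and 42, and for the gate of Foxf1 and Hand1 mesoderm 31 and 25 cells, beside 41 and 30. For the node gate they were 25 and 16 cells, beside 29 and 30, and for the anterior visceral endoderm gate 22 and 22, beside 18 and 24. The Yap1 cKO node-like cells were led by haemoglobin genes, which came from 1 cell.

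With 1 library per genotype no test between genotypes was possible. Each level is given in CPM of the UMIs summed over the cells of a population, with an exact 95% Poisson interval, and each Yap1 cKO to control ratio with an exact 95% interval. These intervals cover counting error only and not the variation between embryos. A ratio was called past the fold when it was at most 0.8, or at least its inverse, and the gene had at least 100 UMIs over both libraries in that population. The share of all genes past the same fold is given with the counts of members and of pathway genes.

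The promoters shared features that did not enter the choice of genes. RefSeq windows of 300 bases (250 before to 50 after the annotated start, GRCm38.p6) were at hand for 8 of the 10 genes and came to 10 windows, 3 of them of Smad5. All 10 windows held the GC box GGGCGG (either strand), which was found in 35.6% of the 32817 windows of all genes. None held the TEAD motif GGAATG (either strand), found in 14.7% of all windows. They held 23 to 54 CpG dinucleotides each, against a median of 7. Of all windows, 78.5% held fewer than the Bmpr2 window (23) and 99.7% fewer than that of Acvr2a (54). Some of the Smad5 windows overlap each other. A match of letters is a description of the window and not evidence of binding, and no match says only that these letters are not in the window. The windows of Smad3 and Acvr2a are shown because these were the members with the lowest Yap1 cKO to control ratios over all embryonic cells, with the GC boxes in capitals. The Smad3 window lies at chr9:63757945-63758244 (minus strand) at the start of the gene (chr9:63646767-63757994), and the Acvr2a window at chr2:48813859-48814158 (plus strand) at the start of the gene (chr2:48814109-48903269).
Smad3: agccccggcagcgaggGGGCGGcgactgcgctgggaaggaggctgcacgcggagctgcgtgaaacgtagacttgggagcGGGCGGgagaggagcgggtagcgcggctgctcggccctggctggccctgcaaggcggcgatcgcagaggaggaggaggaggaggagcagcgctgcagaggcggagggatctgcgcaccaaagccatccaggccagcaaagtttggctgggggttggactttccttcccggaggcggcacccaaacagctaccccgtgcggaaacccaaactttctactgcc
Acvr2a: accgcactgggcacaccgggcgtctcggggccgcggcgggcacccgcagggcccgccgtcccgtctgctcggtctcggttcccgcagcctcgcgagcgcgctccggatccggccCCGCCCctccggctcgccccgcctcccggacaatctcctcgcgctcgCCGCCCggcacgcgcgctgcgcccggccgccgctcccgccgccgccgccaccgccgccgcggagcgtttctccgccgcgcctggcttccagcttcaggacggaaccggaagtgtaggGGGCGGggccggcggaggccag

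The levels of several members differed far more between populations than between genotypes, and these differences were found in both libraries (plot of levels by population). Smad3, the DNA-binding Activin and Nodal Smad, was highest in extraembryonic ectoderm-like cells, at 43.2 CPM (interval 40.1 to 46.4) in control against 43.1 CPM (39.6 to 46.9) in the Yap1 cKO library. It was lowest in visceral endoderm-like cells, at 3.41 CPM (2.11 to 5.21) and 2.73 CPM (1.99 to 3.66). The highest level was 12.7 times the lowest in control and 15.8 times in Yap1 cKO. The extraembryonic ectoderm-like level stood above the next population beyond the counting interval in both libraries, and the visceral endoderm-like level stood below the one before it. Among the 5 populations from the fourth to the eighth place of the control (epiblast-like, nascent mesoderm-like, blood progenitor-like, anterior visceral endoderm-like and primitive streak-like) no neighbours differed beyond the intervals.

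**Figure D1:**
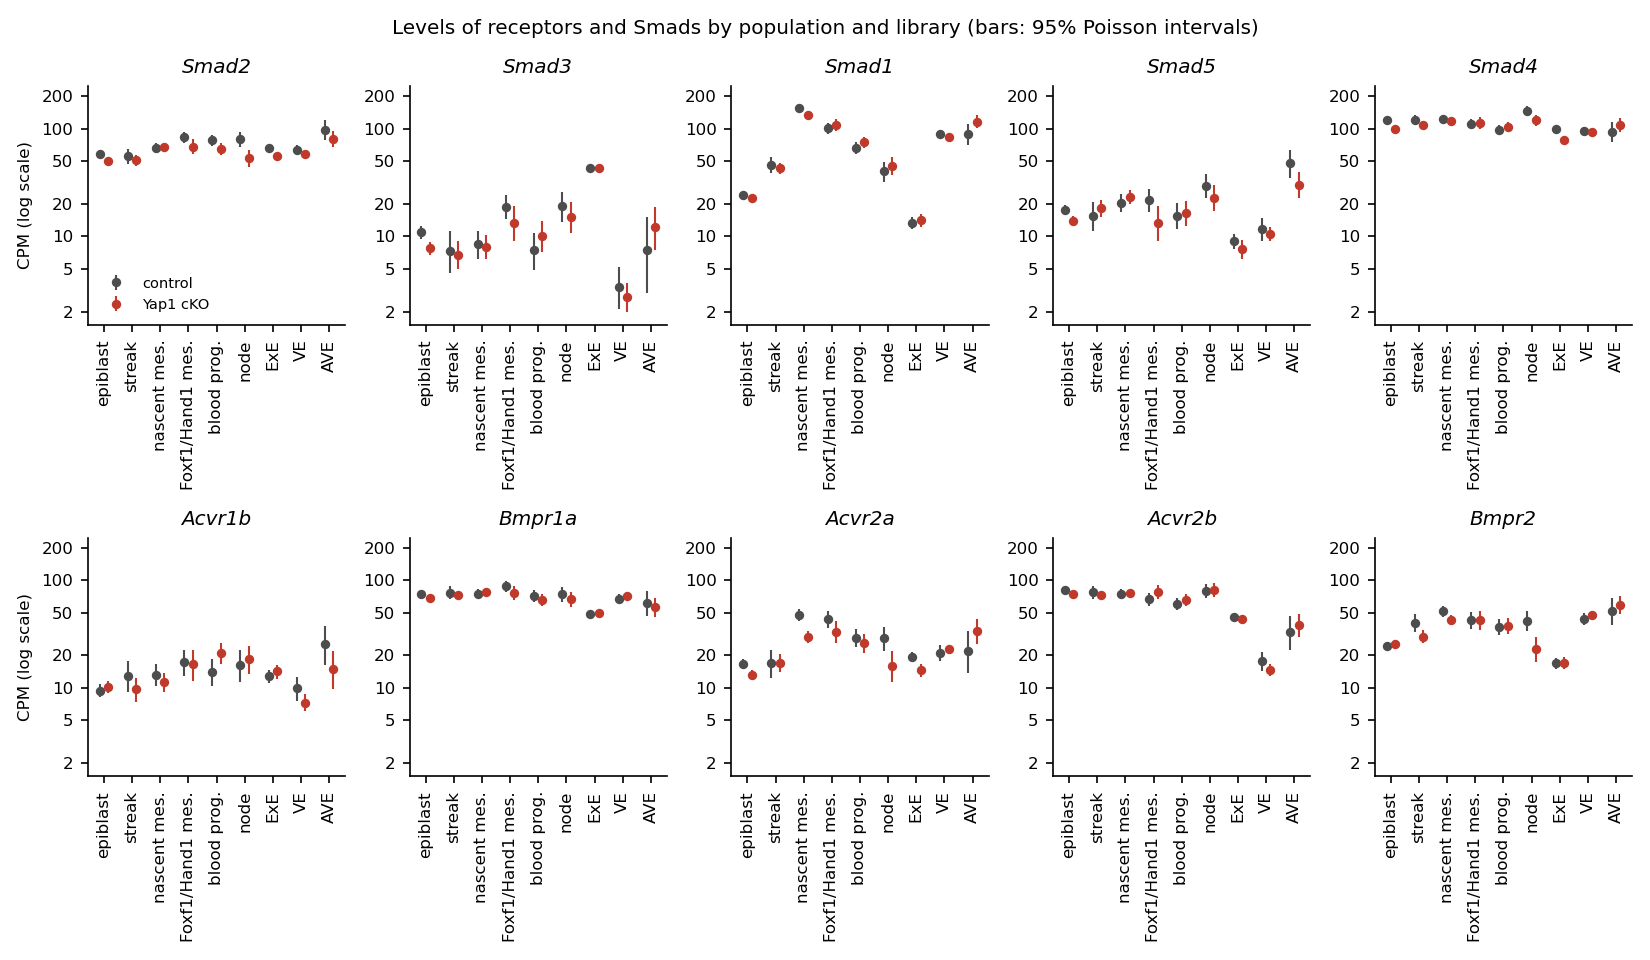
Level of each member in CPM (y axis, log scale) in 9 marker-gated populations (x axis) of the control (grey) and Yap1 cKO (red) library. Points are sums over the cells of a population and bars are 95% Poisson intervals of the count; Smad3 spanned 3.41 to 43.2 CPM and Smad1 13.3 to 157 CPM in control, whereas Smad4 spanned 94.1 to 146 CPM.

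Smad1, a BMP Smad (chr8:79338395-79399518), had its low point where Smad3 had its high point. It was highest in nascent mesoderm-like cells, at 157 CPM in control against 133 CPM in Yap1 cKO, and lowest in extraembryonic ectoderm-like cells, at 13.3 and 14.1 CPM. The nascent mesoderm-like level was 6.53 times (5.84 to 7.29) the epiblast-like level in control and 5.90 times (5.33 to 6.54) in Yap1 cKO. From epiblast-like (24.0 and 22.6 CPM) over primitive streak-like (46.4 and 42.8 CPM) to nascent mesoderm-like cells, each step lay beyond the counting intervals in both libraries. Smad1 thus stood higher in each successive population of the path from epiblast to mesoderm, and Foxf1 and Hand1 mesoderm-like cells were at 101 and 108 CPM. The visceral endoderm-like level was 89.8 and 83.4 CPM, and the anterior visceral endoderm-like level 88.8 and 116 CPM. Smad5, its close relative (chr13:56703010-56742377), was also lowest in extraembryonic ectoderm-like cells (9.0 and 7.61 CPM) but highest in anterior visceral endoderm-like cells (47.6 and 30.1 CPM, from 45 and 52 UMIs). Only 1 of the 8 pairs of neighbouring Smad5 levels differed beyond the intervals in each library.

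Smad2 and Smad4 each varied little between populations. Smad2 ranged from 55.6 to 98.3 CPM in control and from 50.6 to 80.4 CPM in Yap1 cKO, a span of 1.77-fold and 1.59-fold. Smad4, which both branches need, ranged from 94.1 to 146 CPM and from 78.0 to 120 CPM. The node-like population had the highest Smad4 level in both libraries, at 146 CPM (131 to 164) and 120 CPM (106 to 134). It stood above the next population beyond the interval in control only, since nascent mesoderm-like cells of the Yap1 cKO were at 119 CPM.

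Among the type I receptors, Bmpr1a spanned 48.2 to 88.0 CPM in control and 49.6 to 78.2 CPM in Yap1 cKO, and none of its neighbouring levels differed beyond the intervals in either library. Levels that are not neighbours could still differ. Its lowest level, in extraembryonic ectoderm-like cells, was 0.652 times (0.598 to 0.709) and 0.725 times (0.661 to 0.794) the epiblast-like level. Acvr1b was low in all populations, at 9.41 to 25.4 CPM and 7.29 to 21.2 CPM. Among the type II receptors, Acvr2b was at 82.0 and 73.8 CPM in epiblast-like cells but at 17.7 and 14.6 CPM in visceral endoderm-like cells, 0.216 times (0.176 to 0.262) and 0.198 times (0.173 to 0.227) the epiblast-like level. The blood progenitor-like to extraembryonic ectoderm-like step and the last step to visceral endoderm-like cells lay beyond the intervals in both libraries, and the 6 embryonic populations above them formed 1 run without such a step. The ends of that run differed in control, where the blood progenitor-like level was 0.736 times (0.637 to 0.847) the epiblast-like level. In Yap1 cKO it was 0.895 times (0.781 to 1.02). Acvr2a, the paralogous Activin and BMP type II receptor, was highest in nascent mesoderm-like and Foxf1 and Hand1 mesoderm-like cells of the control (47.9 and 43.4 CPM) and lowest in epiblast-like cells (16.8 CPM). In Yap1 cKO it was highest in anterior visceral endoderm-like (33.5 CPM) and Foxf1 and Hand1 mesoderm-like cells (33.0 CPM) and again lowest in epiblast-like cells (13.2 CPM). Bmpr2, the BMP type II receptor, was lowest in extraembryonic ectoderm-like cells (16.9 and 17.1 CPM) and highest in anterior visceral endoderm-like cells (51.8 and 59.0 CPM). In neither library did this highest level stand above the next beyond the interval, and control nascent mesoderm-like cells were at 51.7 CPM. These type II receptors thus had different low points, visceral endoderm for Acvr2b and extraembryonic ectoderm for Bmpr2.

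Shares within sets of related genes describe the same pattern without reference to library size. A UMI counts 1 captured molecule whatever its length, but capture can differ between genes, so a share is read across populations and not as a true proportion. Of the UMIs of the 4 receptor-regulated Smads, the BMP pair Smad1 and Smad5 held 37.5% (35.6 to 39.5) in control and 38.4% (36.5 to 40.4) in Yap1 cKO epiblast-like cells. That share was 49.6% and 51.5% in primitive streak-like cells, and 70.3% and 67.5% in nascent mesoderm-like cells. It was 17.0% (15.4 to 18.6) and 18.1% (16.2 to 20.1) in extraembryonic ectoderm-like cells, and 60.3% and 60.5% in visceral endoderm-like cells. Across the 9 populations the share of the BMP pair was lowest in extraembryonic ectoderm-like and highest in nascent mesoderm-like cells of both libraries.

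Smad3 held 39.6% (37.3 to 41.8) and 43.8% (41.0 to 46.5) of the Smad2 and Smad3 UMIs in extraembryonic ectoderm-like cells. In the other 8 populations its share was 5.10% to 19.3% in control and 4.46% to 22.2% in Yap1 cKO. Acvr2b held 83.0% and 84.8% of the Acvr2a and Acvr2b UMIs in epiblast-like cells, and 45.6% and 39.0% in visceral endoderm-like cells. Bmpr2 held 18.5% to 21.6% (interval) of the type II receptor UMIs in control epiblast-like cells and 22.7% in Yap1 cKO, and 53.0% and 55.9% in visceral endoderm-like cells. Of 54 shares compared between the libraries, the intervals of 2 did not overlap. One was Acvr2b in nascent mesoderm-like cells, at 61.1% (57.3 to 64.8) in control and 72.0% (68.9 to 74.9) in Yap1 cKO. The other was Smad5 of Smad1 and Smad5 among anterior visceral endoderm-like cells, where it went from 34.9% (26.7 to 43.8) to 20.6% (15.7 to 26.1). This population is small, with 18 and 24 cells that gave 45 and 52 Smad5 UMIs. In each library the summed markers of 22 cells lay within 25% of its gate threshold. Shares of other gene pairs were not computed, so whether 2 of 54 is unusual between these libraries was not tested.

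**Figure D2:**
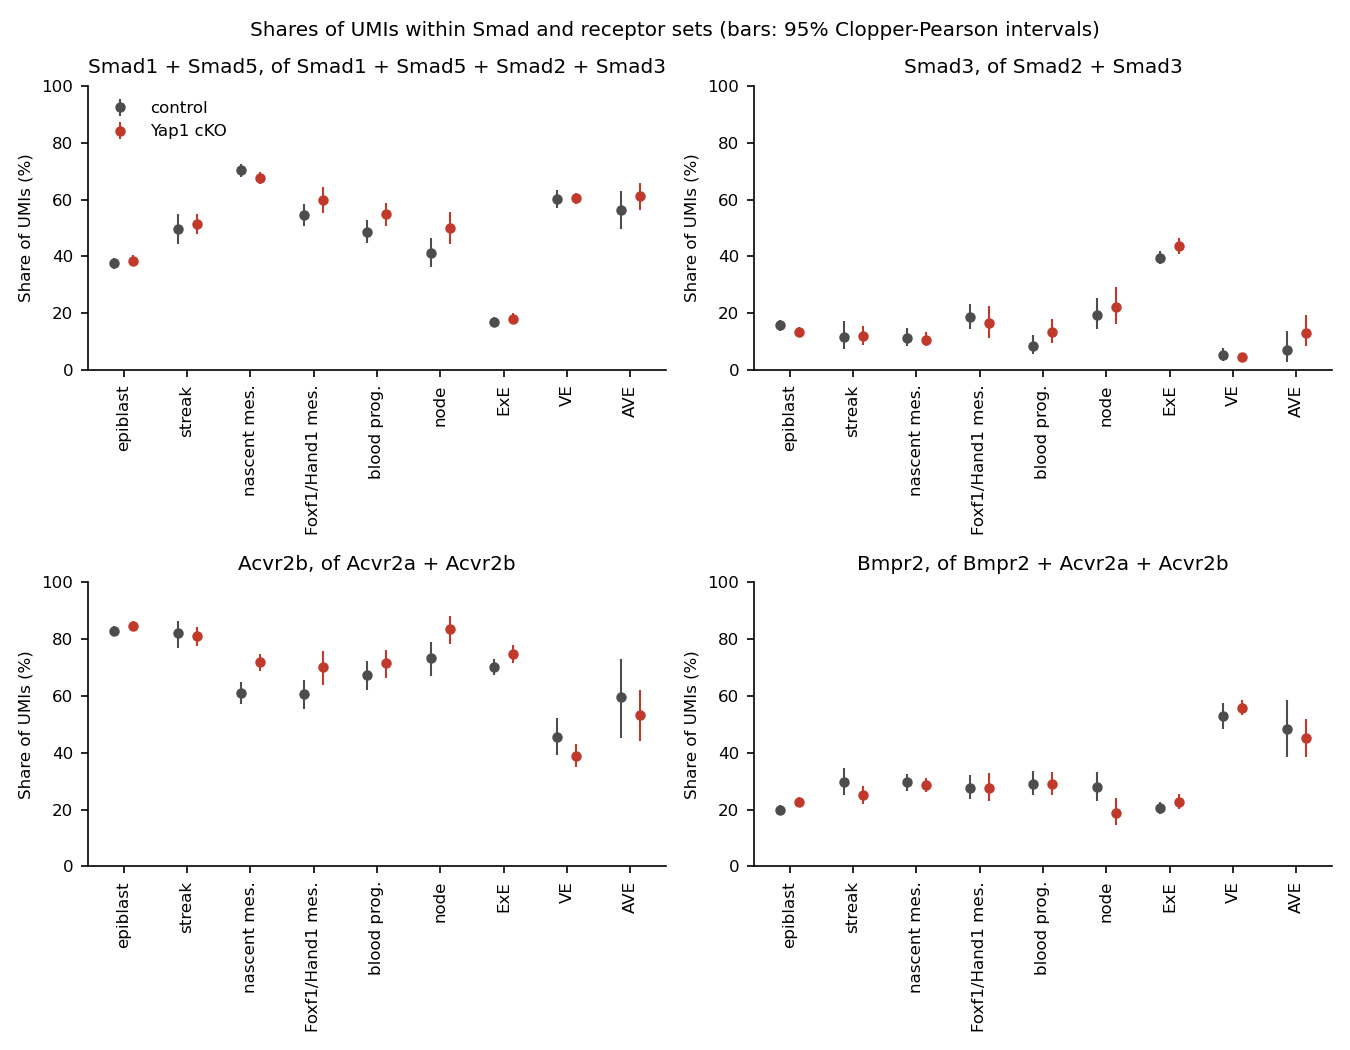
Share of the UMIs of a set held by the named member or pair (y axis, percent) in 9 populations (x axis) of the control (grey) and Yap1 cKO (red) library, with 95% Clopper-Pearson intervals. The Smad1 and Smad5 share went from 17.0% in extraembryonic ectoderm-like to 70.3% in nascent mesoderm-like control cells, and of the shares drawn the libraries were apart only for Acvr2b in nascent mesoderm-like cells.

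The same contrasts were seen cell by cell. After each cell was thinned to 38000 UMIs, with shallower cells left out (4 and 10 epiblast-like, 7 and 5 extraembryonic ectoderm-like, 6 and 23 visceral endoderm-like cells), a Smad3 UMI was found in 75.1% (68.0 to 81.4) of the control extraembryonic ectoderm-like cells and in 76.0% (66.3 to 84.2) of those of the Yap1 cKO. In visceral endoderm-like cells, the population with the lowest level, it was found in 8 of 73 cells (4.85% to 20.5%) and 13 of 176 cells (3.99% to 12.3%). In epiblast-like cells it was found in 33.6% (27.9 to 39.7) and 22.0% (16.9 to 27.8). Unthinned, these shares were 92.2% and 96.0%, 17.7% and 14.6%, and 53.2% and 44.6%. Thinned Smad4 UMIs were found in at least 94.9% of the cells of each of these 3 populations. UMIs of all 3 kinds of Smad (Smad2 or Smad3, Smad1 or Smad5, and Smad4) were present together in 74.1% and 61.8% of thinned epiblast-like cells, 84.1% and 84.3% of nascent mesoderm-like cells, and 52.6% and 42.7% of extraembryonic ectoderm-like cells. These joint shares are for thinned cells only, and a missing UMI does not show that a cell lacks the transcript. Smad1 alone was found in 61.0% and 54.8% of thinned epiblast-like cells, but in 82.1% and 80.5% unthinned. For extraembryonic ectoderm-like cells these were 37.0% and 39.6%, but 61.1% and 74.3% unthinned.

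In epiblast-like cells (263 control and 251 Yap1 cKO cells), 3 of the 10 members were past the fold, all lower in Yap1 cKO. Of the 11449 genes with enough UMIs there, 14.2% were past the fold, 9.05% lower and 5.13% higher. Smad3 was at 10.9 CPM (9.55 to 12.4) in control against 7.75 CPM (6.70 to 8.91) in Yap1 cKO cells, a ratio of 0.711 (0.585 to 0.863). Smad5 was at 17.7 CPM (15.9 to 19.5) against 13.8 CPM (12.4 to 15.4), which gave a ratio of 0.783 (0.675 to 0.908). Acvr2a was at 16.8 CPM (15.1 to 18.6) against 13.2 CPM (11.8 to 14.7), which gave a ratio of 0.786 (0.675 to 0.915). All 3 were among the less abundant members. Smad4, at 122 CPM (118 to 127) in control against 100 CPM (96.2 to 104) in Yap1 cKO, had a ratio of 0.817 (0.773 to 0.863), just inside the fold. Ratios were below 1 for 8 of 10 members, against 60.6% of all genes, and the intervals of 7 lacked 1, against 37.6%. An interval is narrower for a gene with more UMIs. The share of intervals without 1 was not computed for genes with UMIs like those of the members. Whether 7 of 10 is unusual was thus not tested. Acvr1b (1.08) and Bmpr2 (1.03) had ratios above 1. The median log2 ratio of the members was −0.18, beside −0.05 for all genes tested. The Smad3 ratio stayed at most 0.8 in 11 of 12 alternative treatments of the data, and those of Smad5 and Acvr2a in 7 of 12 each. Each of the 3 calls was lost in cells of 1 sex. In Y-bearing cells (Y-linked UMIs and no Xist) Smad3 was at 0.854 (0.610 to 1.19) and Smad5 at 0.828 (0.646 to 1.06). In Xist-bearing cells Acvr2a was at 0.861 (0.700 to 1.06). In the respective other sex the ratios of Smad3, Smad5 and Acvr2a were 0.632, 0.754 and 0.682. Some alternatives could hardly move a ratio here. Keeping doublets left the 263 and 251 cells unchanged, and leaving out cells with visceral endoderm genes left 263 and 248.

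**Figure D3:**
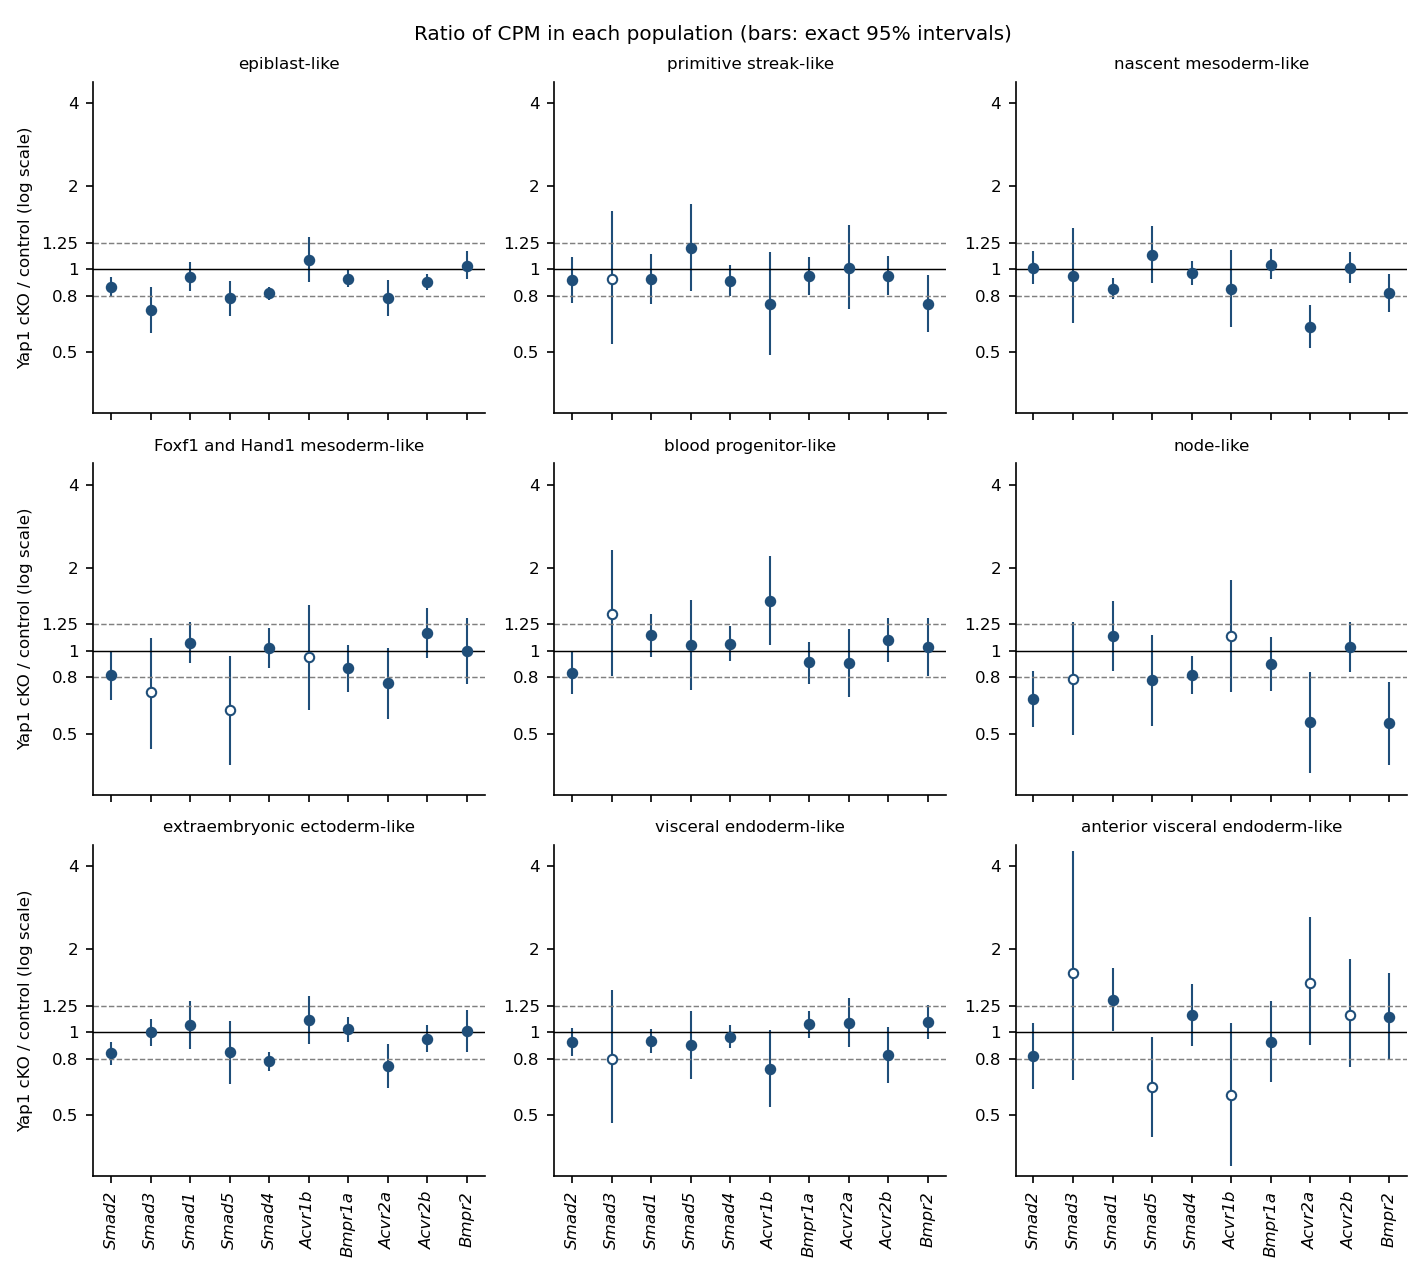
Ratio of CPM in Yap1 cKO to control (y axis, log scale) for each member (x axis) in 9 populations, with exact 95% counting intervals. Filled points had at least 100 UMIs over both libraries, open points fewer, and dashed lines mark 0.8 and its inverse; in epiblast-like cells Smad3 (0.711), Smad5 (0.783) and Acvr2a (0.786) lay at or under the lower line, and Acvr2a in nascent mesoderm-like cells was at 0.618.

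In primitive streak-like cells (40 control and 68 Yap1 cKO cells), 2 of 9 members with enough UMIs were past the fold, both lower, whereas 20.6% of 7707 genes were past it and 13.9% were lower (6.79% higher). Bmpr2 was at 40.1 CPM (33.1 to 48.2) from 114 UMIs in control and lay between 26.0 and 34.6 CPM, from 195 UMIs, in Yap1 cKO. Its ratio was 0.75 (0.592 to 0.953), and 0.95 by unsupervised clusters. The clusters placed 99 control and 25 Yap1 cKO cells in this population, so these are not the same cells. Acvr1b had a ratio of 0.746 (0.490 to 1.15) from 37 and 63 UMIs, an interval that holds 1, and 1.44 when the populations were taken from those clusters. The share of members past the fold here was close to that of all genes, and the median log2 ratio was −0.12 beside −0.06. Smad3, at 7.38 and 6.78 CPM from 21 and 44 UMIs, had too few UMIs for a call.

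Acvr2a was the member past the fold in the largest number of populations. In nascent mesoderm-like cells (69 and 90 cells) it was at 47.9 CPM (42.2 to 54.1) in control against 29.6 CPM (26.0 to 33.5) in Yap1 cKO cells, a ratio of 0.618 (0.517 to 0.739). It was the only one of 10 members past the fold there, where 15.1% of 8659 genes were past it and 7.75% were lower. In Foxf1 and Hand1 mesoderm-like cells its ratio was 0.761 (0.565 to 1.02), 1 of 7 members past the fold beside 22.5% of genes (13.8% lower), but 1.38 in Y-bearing cells (28 control and 5 Yap1 cKO cells). In node-like cells it was 0.553 (0.360 to 0.838), and in extraembryonic ectoderm-like cells 0.756 (0.628 to 0.908). The nascent mesoderm-like ratio stayed at most 0.8 in all 12 alternatives, at 0.478 to 0.683, among them 0.683 for Y-bearing and 0.611 for Xist-bearing cells. The 0.478 came from the clusters, which placed 42 control and 158 Yap1 cKO cells in this population. Keeping doublets left its cells unchanged at 69 and 90, so that alternative could not move the ratio. Acvr2a was not lower in every population, since its ratio was 1.01 (0.716 to 1.45) in primitive streak-like cells, and 1.08 (0.886 to 1.33) among visceral endoderm-like cells. Over all embryonic populations summed, its ratio was 0.740 (0.675 to 0.811), the lowest of the 10, and that of Smad3 was 0.765 (0.67 to 0.878). The other 8 lay between 0.861 (Smad2) and 1.02 (Acvr1b).

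The node-like cells, 29 in control and 30 in Yap1 cKO, had 4 of 8 members past the fold and lower, whereas 22.1% of 5947 genes were past it and 14.8% were lower. Bmpr2 was at 42.0 CPM (33.7 to 51.6) against 22.9 CPM (17.3 to 29.8), which gave a ratio of 0.547 (0.384 to 0.772). Smad2 was at 79.7 CPM (68.2 to 92.6) against 53.3 CPM (44.5 to 63.2), which gave a ratio of 0.668 (0.528 to 0.844). Smad5 had a ratio of 0.781 (0.535 to 1.14). These ratios rest on few cells, and the control held 16 Y-bearing cells whereas the Yap1 cKO held none. In Xist-bearing cells alone the Smad2 ratio was 0.869. Without the 1 Yap1 cKO cell rich in haemoglobin transcripts, the ratios of Bmpr2, Smad2, Smad5 and Acvr2a were 0.516, 0.655, 0.795 and 0.573. By clusters, which placed 40 control and 24 Yap1 cKO cells here, those of Acvr2a and Smad5 were 0.981 and 0.873.

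In blood progenitor-like cells, 1 of 9 members was past the fold, beside 21.8% of 7132 genes (11.9% higher). This was Acvr1b, at 14.0 CPM (10.4 to 18.4) in control against 21.2 CPM (16.8 to 26.4) in Yap1 cKO cells, a ratio of 1.52 (1.05 to 2.20) from 51 and 80 UMIs. With gate thresholds halved it was 1.15 and no longer past the fold. In anterior visceral endoderm-like cells, 1 of 5 members was past it, beside 25.1% of 4405 genes (13.3% higher), and this was Smad1 with a ratio of 1.31 (1.01 to 1.71). That ratio was past the fold in 8 of 11 alternatives and fell to 1.08 with thresholds halved.

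Extraembryonic ectoderm-like and visceral endoderm-like cells lie outside the known reach of Sox2-Cre. Their Yap1 ratios were 0.741 (0.629 to 0.871), which is past the fold and lower, and 0.875 (0.739 to 1.04). Extraembryonic ectoderm-like cells are thus not a comparison with unchanged Yap1. In extraembryonic ectoderm-like cells (180 and 101 cells), 2 of 10 members were past the fold, both lower, beside 13.1% of 9850 genes (8.75% lower, 4.34% higher). These were Acvr2a (above) and Smad4, at 99.2 CPM (94.5 to 104) in control against 78.0 CPM (73.2 to 83.0) in Yap1 cKO cells, a ratio of 0.786 (0.726 to 0.851). The call was lost for Smad4 in Xist-bearing cells (0.869) and for Acvr2a in Y-bearing cells (0.864). Smad2, Smad4 and Acvr2a had ratios of 0.841, 0.786 and 0.756 here, beside 0.864, 0.817 and 0.786 in epiblast-like cells. Smad3 had a ratio of 0.999 (0.893 to 1.12) in extraembryonic ectoderm-like cells and 0.711 (0.585 to 0.863) in epiblast-like cells. The intervals of these 2 Smad3 ratios did not overlap. The same held in Xist-bearing cells, at 1.08 (0.909 to 1.30) and 0.632 (0.489 to 0.817), but not in Y-bearing cells, at 0.820 (0.648 to 1.03) and 0.854 (0.610 to 1.19). Smad5 was intermediate, at 0.845 (0.648 to 1.10), an interval that overlaps its epiblast-like one. In visceral endoderm-like cells (79 and 199 cells), 1 of 9 members was past the fold, beside 17.7% of 9554 genes (10.2% lower). This was Acvr1b with a ratio of 0.735 (0.536 to 1.02), and 0.847 for means of single-cell CPM, and no member had an interval without 1.

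Epiblast cells that approach the streak express Fgf8, and epiblast-like cells were parted at 50 CPM of Fgf8 into 194 control and 117 Yap1 cKO Fgf8-low cells and 69 and 134 Fgf8-positive cells. The authors report Fgf8 itself as higher in Yap1 cKO epiblast, and the cut took a larger part of that library. The Fgf8-positive cells of the 2 libraries may thus be unlike, and genotype and this selection cannot be told apart. No member was past the fold in Fgf8-low cells, beside 11.9% of genes. In Fgf8-positive cells 4 of 10 were past it, all lower, beside 19.1% of genes past the fold either way. The 4 were Smad5 (0.577, interval 0.455 to 0.734), Smad3 (0.621, 0.449 to 0.866), Acvr2a (0.699, 0.546 to 0.899) and Smad4 (0.775, 0.707 to 0.849). In Fgf8-low cells Smad3 was at 0.810 (0.623 to 1.05), Acvr2a at 0.839 (0.681 to 1.03) and Smad4 at 0.850 (0.789 to 0.916). These intervals overlap those of the Fgf8-positive cells, so for these genes the parts differ in the call more than in the ratio. Of the 4, only Smad5 (0.962, 0.789 to 1.17 in Fgf8-low cells) had intervals apart. Smad5 was the member with the lowest ratio in the Fgf8-positive part. It was at 16.3 CPM (14.4 to 18.4) in control against 15.7 CPM (13.4 to 18.2) in Yap1 cKO Fgf8-low cells, but at 21.5 CPM (17.8 to 25.7) and 12.4 CPM (10.6 to 14.4) in Fgf8-positive cells. Within the control library Fgf8-positive cells had 1.32 times (1.05 to 1.64) the Smad5 level of Fgf8-low cells, and within the Yap1 cKO library 0.789 times (0.636 to 0.979). The Smad5 ratio in Fgf8-positive cells was 0.707 and 0.602 with Fgf8 thresholds of 25 and 100 CPM, and the sexes gave 0.646 (Y-bearing) and 0.528 (Xist-bearing). Smad3 was also past the fold in both sexes (0.749 and 0.609). Acvr2a and Smad4 were past it in Y-bearing Fgf8-positive cells (0.551 and 0.717). In Xist-bearing ones they were not, at 0.825 (0.584 to 1.18) and 0.849 (0.748 to 0.967). In primitive streak-like cells the Smad5 ratio was 1.19 (0.832 to 1.72). For Smad3 the parts depended on the threshold, since its ratios were 0.735 in Fgf8-low and 0.730 in Fgf8-positive cells at 25 CPM. Acvr1b was past the fold in Fgf8-low cells at that threshold as well, at a ratio of 1.33.

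**Figure D4:**
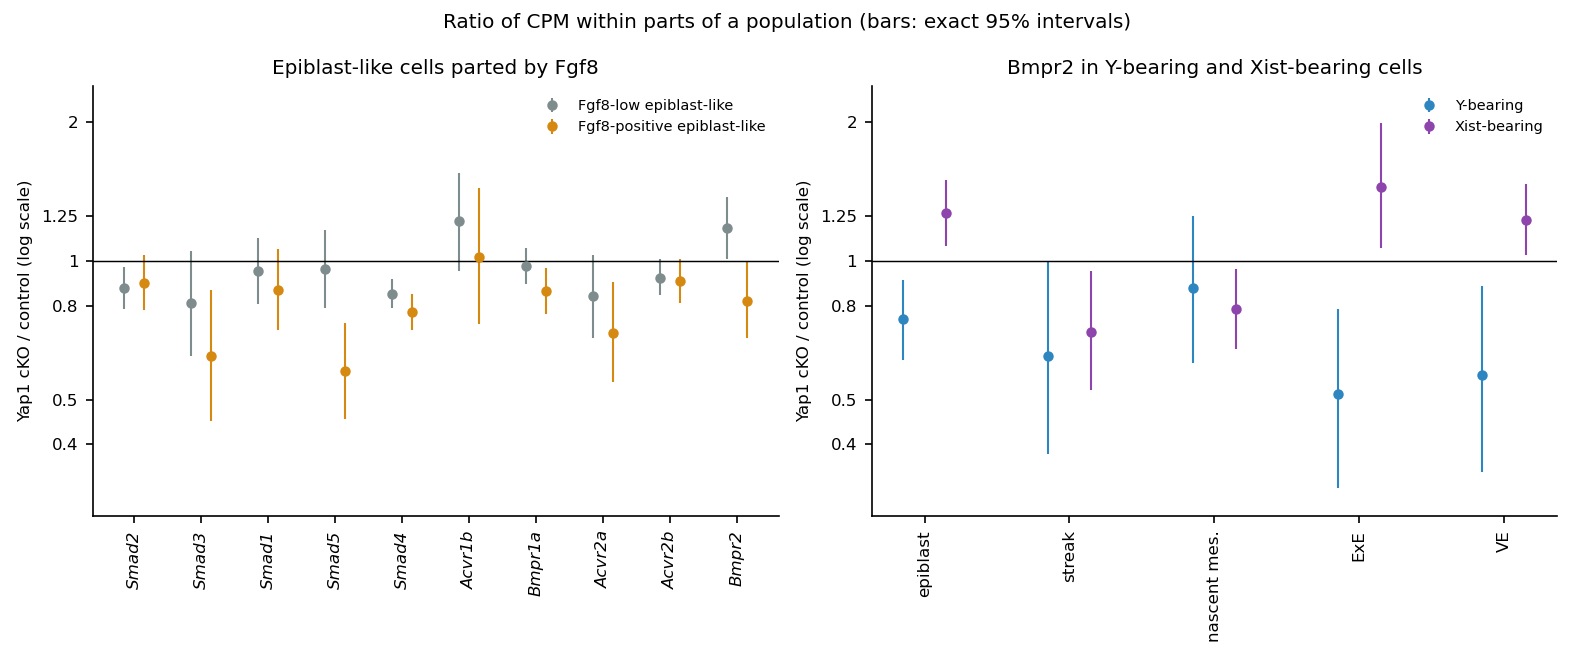
Ratio of CPM in Yap1 cKO to control (y axes, log scale) with exact 95% counting intervals, on the left for each member in Fgf8-low (grey) and Fgf8-positive (orange) epiblast-like cells, and on the right for Bmpr2 in Y-bearing (blue) and Xist-bearing (purple) cells of 5 populations. Smad5 was at 0.962 and 0.577 in the parts by Fgf8, and Bmpr2 was at 0.747 and 1.27 in the Y-bearing and Xist-bearing epiblast-like cells.

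The sexes of the cells mark different embryos of each pool and changed some ratios. In Y-bearing epiblast-like cells (140 control and 54 Yap1 cKO cells) all 10 members had ratios below 1, from 0.682 (Acvr2a) to 0.943 (Acvr1b), beside 69.3% of genes. In Xist-bearing epiblast-like cells (113 and 187 cells) 7 of 10 were below 1, from 0.632 (Smad3) to 1.27 (Bmpr2), beside 51.7% of genes. Bmpr2 had ratios on opposite sides of 1 in 3 populations. They were 0.747 (0.610 to 0.912) in Y-bearing and 1.27 (1.08 to 1.5) in Xist-bearing epiblast-like cells, 0.515 (0.322 to 0.788) and 1.45 (1.07 to 1.99) in extraembryonic ectoderm-like cells, and 0.565 (0.349 to 0.882) and 1.23 (1.03 to 1.47) in visceral endoderm-like cells. The last pair rests on 26 control and 12 Yap1 cKO Y-bearing cells, beside 46 and 169 Xist-bearing ones. Smad5 also differed in these visceral endoderm-like cells, at 3.11 (1.68 to 5.85) in Y-bearing and 0.781 (0.556 to 1.12) in Xist-bearing cells. Within the control library, Y-bearing cells had 1.27 times (1.07 to 1.53) the Bmpr2 level of Xist-bearing cells in the epiblast-like population, and within the Yap1 cKO library 0.751 times (0.620 to 0.906). The Bmpr2 ratio of 1.03 in all epiblast-like cells was thus made of unlike parts, and genotype and embryo cannot be told apart here. In nascent mesoderm-like cells both Bmpr2 ratios were below 1, at 0.876 in Y-bearing cells and 0.785 (0.643 to 0.961) in Xist-bearing cells. In extraembryonic ectoderm-like cells, 9 of 10 members were below 1 in Y-bearing cells (beside 59.4% of genes; 109 control and 19 Yap1 cKO cells) and 5 of 10 in Xist-bearing cells (beside 55.6%; 50 and 71 cells).

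The rest of the pathway was read from lists chosen with earlier results of these data known, and their counts stand beside 5.13% of all genes higher and 9.05% lower in epiblast-like cells. The ratios of these genes were not parted by sex, in which the pools differ. There, 1 of the 6 other receptors and co-receptors with enough UMIs (of 11) was past the fold, namely the Nodal co-receptor Cfc1 at 3.54 and 5.24 CPM, with a ratio of 1.48 (1.11 to 1.99). The more abundant co-receptor Tdgf1 had a ratio of 1.18 (1.11 to 1.26), and Tgfbr1 and Bmpr1b had 0.892 and 0.848. Of 19 other Smads and Smad partners (of 20), 3 were higher and 1 lower. The inhibitory Smad7 was at 52.4 and 66.5 CPM (1.27, 1.18 to 1.37), Pmepa1, a feedback inhibitor that binds Smads, at 42.0 and 63.3 CPM (1.51, 1.39 to 1.64), and its relative Ldlrad4 at 3.31 and 5.40 CPM (1.63, 1.22 to 2.21). Foxh1, the DNA-binding partner of Smad2 and Smad3 in the Nodal response, was at 3.31 and 2.42 CPM (0.733, 0.512 to 1.05). The 19 genes as a whole had a median log2 ratio of −0.10.

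Of the ligands, 2 of 12 had enough UMIs in epiblast-like cells, 1 higher and 1 lower. Nodal was at 13.9 and 28.8 CPM (2.07, 1.81 to 2.38) and Tgfb2 at 3.87 and 2.74 CPM (0.709, 0.507 to 0.987). Of the 8 response genes, which are read as outputs of the 2 branches, 7 had enough UMIs and all 7 were higher, beside 5.13% of all genes, with a median log2 ratio of 1.04. The BMP-responsive Id1 was at 73.8 and 156 CPM (2.12, 1.99 to 2.24), Id2 at 25.5 and 49.0 CPM (1.92, 1.73 to 2.13), and Id3 at 359 and 454 CPM (1.27, 1.23 to 1.30). Msx1 was at 3.40 and 9.85 CPM (2.90, 2.22 to 3.81) and Msx2 at 2.61 and 3.73 CPM (1.43, 1.02 to 2.03). The Nodal-responsive Lefty1 and Lefty2 had ratios of 3.26 and 2.06, from 22 and 46 control UMIs. The 7 response genes, Nodal, Smad7, Pmepa1 and Ldlrad4 thus were past the fold and higher, whereas none of the 10 members was. Smad6 (1.15, 0.880 to 1.52) and Bambi (1.19, 1.03 to 1.37) were not past it. Fgf8-positive cells were 69 of the 263 control and 134 of the 251 Yap1 cKO epiblast-like cells. The part of this unlike mix in these ratios was not tested.

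In primitive streak-like cells the response genes were less uniform, with Id2 (1.39) and Id3 (1.33) higher and Msx2 (0.689) lower of 5 with enough UMIs, beside 6.79% of all genes higher and 13.9% lower. Id1 was at 238 and 233 CPM there (0.978, 0.893 to 1.07), and Msx1 had a ratio of 1.24 (0.953 to 1.62). Nodal (1.26), Smad7 (1.47) and Cfc1 (1.52) were past the fold and higher, and Bmpr1b (0.734), Zfyve9 (0.795) and Usp9x (0.786) were lower. In extraembryonic ectoderm-like cells 3 of 4 response genes were higher as well, beside 4.34% of all genes, with Id3 at a ratio of 4.98 (4.09 to 6.11). Pmepa1 (1.64) and Tgfbr2 (1.33, 0.894 to 1.99) were higher there, and Acvr1 (0.780, 0.583 to 1.04) and Ppm1a (0.794, 0.717 to 0.878) lower. The co-receptors Tdgf1 and Cfc1, which mark epiblast and streak, gave 6 and 3 UMIs in control and 42 and 57 UMIs in Yap1 cKO extraembryonic ectoderm-like cells, and their part in the higher response genes there was not tested.

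The genes with the most similar patterns were found by Pearson correlation of log2(CPM + 1) over the 18 levels (9 populations in 2 libraries), among 14230 genes. The points share libraries and depth, and no p was computed. The closest were Anp32a, Ncapd2 and Bckdhb for Acvr2b (0.99, 0.98 and 0.98), Zfp362, Greb1 and Col23a1 for Smad1 (0.94, 0.93 and 0.93), A630012P03Rik, Aff4 and Galnt11 for Bmpr2 (0.94, 0.92 and 0.92) and Sin3b, Kmt2a and Paip1 for Smad3 (0.91, 0.90 and 0.90). For Smad2 they were Zfp438, Ppp1r12a and Ankrd40 (0.92, 0.92 and 0.90), for Smad5 Elmo1, Pcm1 and Maml3 (0.92, 0.92 and 0.91), and for Smad4 Rprd2, Mga and Gm29361 (0.89, 0.89 and 0.88). For the remaining receptors they were Rcbtb1, Ext1 and Add3 for Bmpr1a (0.92, 0.91 and 0.91), Trim56, Kifap3 and Camk1 for Acvr1b (0.90, 0.88 and 0.85), and 1010001N08Rik, Yaf2 and Gfra3 for Acvr2a (0.88, 0.86 and 0.85). Among the members themselves the highest correlation was between Smad1 and Bmpr2 (0.90) and the lowest between Smad3 and Bmpr2 (−0.60). The correlations followed the branches only in part. Smad1 had its highest with the BMP receptor Bmpr2, but 0.77 with the shared receptor Acvr2a and 0.49 and 0.53 with its BMP partners Smad5 and Bmpr1a.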

How the data were processed

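Single-cell RNA-seq libraries were made from 1 pool of control and 1 pool of Yap1 cKO embryos at E7. The authors deposited UMI counts per gene and barcode, made with Cell Ranger 7.1.0 on mm10 per the labels, with no normalization. From these counts, cells were kept at 5000 genes or more and at most 10% mitochondrial UMIs, and scrublet calls (scanpy 1.11.5, run on all barcodes) were removed. Populations were gated by summed CPM of marker genes, in the order visceral endoderm (anterior where that list also passed), extraembryonic ectoderm, node, blood, Foxf1 and Hand1 mesoderm, nascent mesoderm, streak and epiblast. After the node gate, remaining cells that passed the anterior visceral endoderm list were left in no population. The streak gate used only T and Mixl1, and the blood gate left out Kdr. Thresholds were 1000 CPM for visceral endoderm, 300 for its anterior list, 200 for extraembryonic ectoderm, 40 for node and 100 for blood. They were 400 CPM for Foxf1 and Hand1 mesoderm, 200 for nascent mesoderm, 20 for streak and 400 for epiblast. The members, lists and markers were chosen with earlier results of these data known, and the gate thresholds after the cells were seen. UMIs were summed per population and library. Intervals are exact Poisson, conditional binomial or Clopper-Pearson at 95%, and they cover counting error only. The members named, and from the pathway lists the genes past 1.25-fold, follow a fixed rule; other pathway genes that are named were chosen after their values were seen. A gene of the response list is not reported here. Depth was 15974 to 317876 UMIs per control cell and 17169 to 324147 per Yap1 cKO cell. On Poisson counts simulated from control epiblast-like cells, 95.4% of the intervals over 11299 genes held the true ratio. Past the fold were 96.0% of 100 genes changed 1.5-fold and 3.37% of 11099 unchanged genes. The simulation held no variation between cells or embryos, so these values check the calculation and are not error rates of the data. Alternatives covered filters, gates, clusters, scaling, ambient RNA and sex.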

Additional observations from a re-analysis of the deposited data

Results flagged for a closer look

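Smad5 differed between the libraries in its relation to Fgf8. Fgf8-positive epiblast-like cells had 1.32 times the Smad5 level of Fgf8-low cells in control and 0.789 times in Yap1 cKO, with counting intervals on opposite sides of 1. The difference between these relations was not tested, since each genotype has 1 library.

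Bmpr2 had Yap1 cKO to control ratios on opposite sides of 1 in cells of the 2 sexes, with intervals that lacked 1, in 3 populations. The ratios were 0.747 in Y-bearing and 1.27 in Xist-bearing epiblast-like cells, 0.515 and 1.45 in extraembryonic ectoderm-like cells, and 0.565 and 1.23 in visceral endoderm-like cells. The Y-bearing visceral endoderm-like cells were few, 26 in control and 12 in Yap1 cKO. Extraembryonic ectoderm-like and visceral endoderm-like cells held Yap1 at 18.4 and 27.9 CPM in the Yap1 cKO library, beside 24.9 and 31.8 CPM in control. The difference was not tested, and genotype, sex and embryo cannot be told apart in pools of few embryos.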

How the results depend on the processing

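With 1 library per genotype, the precision is limited by counting error and by the unknown variation between embryos, and no result has a replicate check. No paired analysis was possible because each genotype has 1 library. Of 880 recomputed ratios of members, 834 stayed within the counting interval of the reported ratio. Several alternatives kept the same or nearly the same cells, so counts over alternatives overstate how stable the ratios are. Of the 880, 75 lay on the other side of 1, but of the 174 that belong to ratios past the fold only 2 did, namely Acvr1b in primitive streak-like cells by clusters (1.44) and Acvr2a in Foxf1 and Hand1 mesoderm-like cells when only Y-bearing cells were kept (1.38). In epiblast-like cells, 3 members were past the fold, but 1 with a minimum of 2000 genes or with scaling by the median ratio of genes, and 5 in Y-bearing cells. The median log2 ratio there was −0.24 by clusters, −0.31 for Y-bearing cells and −0.12 for Xist-bearing ones. In primitive streak-like cells, 2 members were past the fold, but 0 with a minimum of 6000 genes or with gate thresholds halved, and 4 with thresholds doubled. The median log2 ratio there was −0.26 with thresholds doubled and in Y-bearing cells. Shares with intervals apart numbered 2, but 1 with thresholds doubled, 7 by clusters, 4 for means of single-cell CPM and 7 in Xist-bearing cells. The cause of these changes was not tested. Of 1188 recomputed shares 71 moved, and of 80 ratios in the parts by Fgf8 12 did, and no ratio past the fold there changed side of 1. The Fgf8 thresholds of 25 and 100 CPM, the parts by sex within them and the node-like cells without haemoglobin were chosen after seeing the data.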
